A study of Homo sapiens with 8 samples.

Results

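The L1 family comprises 4 cell adhesion genes, L1CAM, CHL1, NRCAM and NFASC, which were followed here by symbol through their Ensembl identifiers among the 60675 genes counted in each library. The family was chosen by a measured value: L1CAM was one of the largest differences between resistant and parental cells on indisulam, so that difference is given below as a description without a test. Of the 4 genes, 3 had at least 1 read in any library and 1, L1CAM, passed the filter on low counts that left 16661 genes for testing. The cells were Panc10.05, an established human pancreatic cancer line, and 1 derivative of it selected for growth in rising doses of indisulam, a sulfonamide that makes the ubiquitin ligase receptor DCAF15 bind RBM39, a splicing factor, which is then degraded. Each of the 4 groups held 2 libraries. Parental untreated cells received no drug, and parental indisulam cells were treated with 2 µM for 18 h. The study states that resistant indisulam cells were kept continuously on 2 µM. Resistant untreated cells had been withdrawn from the drug for 1 week, a drug holiday. The lines therefore differed in the length of exposure as well as in resistance, and resistance was studied in a single derived population. The study describes the libraries of a group as technical replicates, and p-values concern the spread between these libraries.

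L1 family proteins are single-pass membrane molecules with immunoglobulin-like and fibronectin type III domains outside the cell and a short cytoplasmic tail that binds ankyrin and, in L1CAM, also the clathrin adaptor AP-2. They bind each other, contactins, neuropilins and integrins, guide growing axons and organise nodes of Ranvier. Metalloproteases and gamma-secretase cleave L1CAM. In carcinomas, pancreatic ductal tumours among them, L1CAM is known as a molecule of the invasive front, whereas CHL1, NRCAM and NFASC are best known from neurons and glia.

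L1CAM (ENSG00000198910) lies on the minus strand of chromosome X, at 153861514 to 153886173 on GRCh38. GENCODE places its transcript starts in a distal and a proximal cluster, and gene-level counts do not tell which was used. Both regions are shown because the difference between the lines was one of L1CAM transcript level. Each is written 5′ to 3′ on the minus strand, with the GC box motif GGGCGG, searched on both strands and with overlapping matches counted, in capitals. The distal window holds the 250 bases before the outermost GENCODE start, chrX:153886174-153886423, and no L1CAM exon. The proximal stretch, chrX:153876040-153876113, is the longest run without an annotated L1CAM exon in the 250 bases before a RefSeq start of the gene (GRCh38.p14).
L1CAM distal: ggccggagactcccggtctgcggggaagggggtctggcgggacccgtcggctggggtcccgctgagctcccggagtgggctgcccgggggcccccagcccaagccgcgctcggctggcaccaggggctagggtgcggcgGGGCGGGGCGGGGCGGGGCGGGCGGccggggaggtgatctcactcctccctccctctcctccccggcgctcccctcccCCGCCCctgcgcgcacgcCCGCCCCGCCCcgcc
L1CAM proximal: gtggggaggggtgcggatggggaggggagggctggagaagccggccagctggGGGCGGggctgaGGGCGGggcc
The distal window had 82.0% GC, 29 CpG dinucleotides and 8 matches to GGGCGG. The 250 bases before the proximal RefSeq start had 62.8% GC, 5 CpG and 2 matches, both within the stretch printed. Of these 250 bases 176 lie in annotated L1CAM exons. The window before another proximal RefSeq start, chrX:153875945-153876194, had 62.4% GC, 8 CpG and 2 matches, also with 176 exon bases. Of 35116 RefSeq promoter windows of the same length, 42.6% held the motif at least once, and the median window had 11 CpG. The E-box CAGGTG, the sequence bound by SNAI and ZEB repressors, was searched on both strands. It was found in none of these L1CAM windows, against 17.5% of all windows. These matches describe letters and not binding.

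L1CAM was low in parental cells and far higher in resistant cells, and no other member of the family approached its level. Expression is given as CPM, the reads of a gene per 1e6 reads of a library scaled with TMM. L1CAM stood at 0.347 and 0.290 CPM in the parental untreated libraries, from 38 and 31 reads. It stood at 0.267 and 0.271 CPM in the parental indisulam libraries, from 20 and 21 reads. In resistant cells it reached 21.9 and 22.8 CPM after the drug holiday and 31.5 and 31.8 CPM on the drug, from 1621, 1479, 2127 and 3056 reads. The order of the groups was thus parental indisulam, parental untreated, resistant untreated and resistant indisulam, with no overlap between the lines or between the resistant groups. The parental groups, the neighbours at the low end, differed by no more than counting error, as given below. In bulk RNA, a change in the share of cells that express a gene and a change in the RNA per cell cannot be told apart.

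Per kilobase of exon, a scale on which genes can be compared with each other, the L1CAM level was 0.0438 CPM per kb in parental untreated cells, higher than in 6.5% of the tested genes. In parental indisulam cells it was 0.0370 CPM per kb, higher than in 7.1% of them. It was 3.07 CPM per kb in resistant untreated cells and 4.36 CPM per kb in resistant indisulam cells, higher than in 52.3% and 58.4% of the tested genes. On this scale L1CAM was among the lowest tested genes in parental cells and near their middle in resistant cells. Divided by the longest transcript in place of the union of exons, the level in resistant untreated cells was 4.35 CPM per kb.

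**Figure D1:**
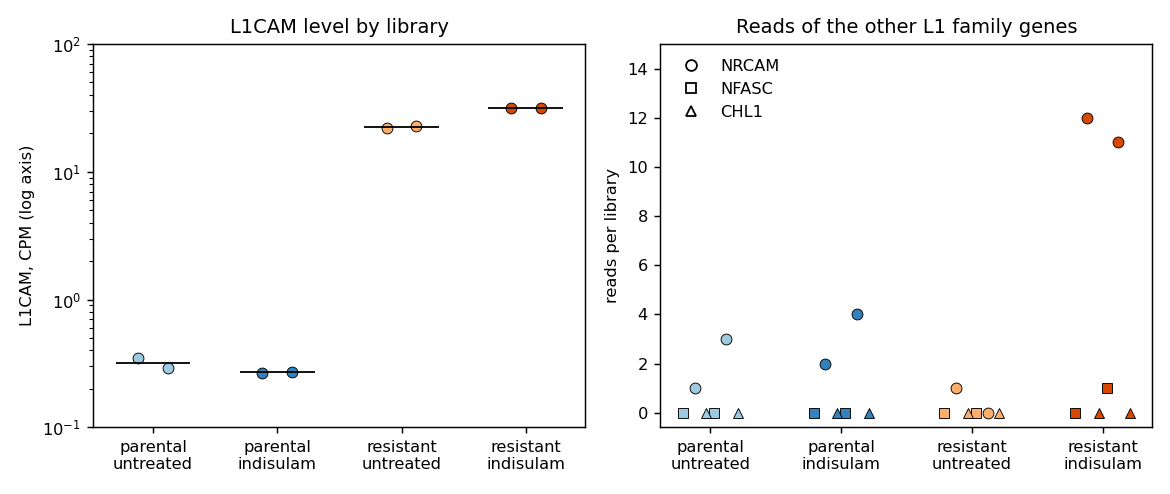
Left, L1CAM level in CPM on a log axis for each library (points) and the mean of each group of 2 libraries (bars). Right, reads per library of NRCAM, NFASC and CHL1. The 4 parental libraries lie between 0.267 and 0.347 CPM and the 4 resistant libraries between 21.9 and 31.8 CPM, while NRCAM reaches 12 reads at most.

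NRCAM (ENSG00000091129, chromosome 7, 108147623 to 108456717, minus strand), which in neurons clusters sodium channels at nodes of Ranvier, was near the detection limit. Parental libraries held 1 and 3 reads without the drug and 2 and 4 with it, and resistant libraries held 1 and 0 reads on the holiday and 12 and 11 on the drug. The resistant indisulam libraries were the highest and did not overlap the others. Over both libraries, 23 reads on the drug against 1 read on the holiday gave a rate ratio of 19.5 with an exact 95% counting interval of 3.17 to 805. In parental cells 6 reads against 4 gave a ratio of 2.13 (exact 95% interval 0.505 to 10.3), an interval that includes both a fall and a rise. These intervals cover counting error only. NRCAM did not pass the filter. In the fit of 31079 genes without a filter its difference between drug and holiday in resistant cells was 4.03 log2 units (SE 0.96, adjusted p 0.000157 with edgeR), where 13.0% of the genes were called higher and 14.0% lower. Its difference between the responses of the lines in that fit was 3.03 log2 units (SE 1.59, adjusted p 0.174), and so was not called. Even at its highest, NRCAM had 0.0183 CPM per kb, far under the 4.36 CPM per kb of L1CAM in the same libraries.

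CHL1, the close homologue of L1CAM (ENSG00000134121, chromosome 3, 196763 to 409417, plus strand), had 0 reads in all 8 libraries. With 3 reads over a group as the limit that a count of 0 allows, its level could have been up to 0.0139 CPM in untreated and 0.0197 CPM in treated parental cells, and up to 0.0216 CPM on the holiday and 0.0183 CPM on the drug in resistant cells. NFASC, whose product neurofascin assembles the axon initial segment (ENSG00000163531, chromosome 1, 204828651 to 205022822, plus strand), had 1 read in 1 resistant indisulam library and 0 in the other 7. No difference in CHL1 or NFASC was detectable at this depth. Annotated genes that overlap a member, L1CAM-AS1 and a second gene model on the L1CAM strand among them, had 0 reads in each library. If reads shared by overlapping genes were discarded in counting, the members' levels are underestimates.

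The lines were first compared off the drug, in libraries that did not enter the choice of L1CAM, although they came from the same 2 lines. L1CAM rose from 0.319 ± 0.0404 CPM in the parental line to 22.3 ± 0.630 CPM in the resistant line (SD, n = 2), or 6.12 log2 units (SE 0.087) with an adjusted p of 3.34e-25 in the quasi-likelihood test of edgeR. The difference was far larger than the spread within either group. It was also a comparison in which 30.3% of the tested genes were called higher and 29.8% lower. By size, L1CAM ranked 49th from the largest rise among 16661 genes and 20th among the 12064 genes with a mean of at least 1 CPM. The parental libraries were the deeper ones, with at least 105655653 reads assigned to genes against at most 74689044 in the resistant untreated libraries, and they had the fewer L1CAM reads.

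On the drug, the comparison that chose L1CAM, its level was 0.269 ± 0.00311 CPM in parental and 31.7 ± 0.161 CPM in resistant cells (SD, n = 2). The log2 difference was 6.87 and is given without a test. Among genes with a mean of at least 1 CPM it ranked 8th, with CCBE1 at 6.96 just before it and SRGN at 6.83 just after it. Of the tested genes, 34.6% were higher and 34.9% lower in this comparison, and nothing about the family is read from it.

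The response to the drug was then examined within each line. Both contrasts share their indisulam libraries with the comparison that chose L1CAM, so they are not independent of the choice. They are therefore given as a description without a test. In parental cells, where 31.6% of the genes were called higher and 26.6% lower, the log2 difference of L1CAM was -0.24 (SE 0.241). From counts this low, the ratio of 41 to 69 reads was 0.843 with an exact 95% counting interval of 0.559 to 1.26. In resistant cells, where 24.9% were called higher and 25.8% lower, the L1CAM level on the drug was 0.51 log2 units above that on the holiday (SE 0.044), both libraries of one group lying above both of the other. The L1CAM response of the resistant line exceeded that of the parental line by 0.75 log2 units (SE 0.244), again without a test since the choosing comparison forms one side of that difference.

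To describe what shared the pattern of L1CAM, the distance between centred log2 CPM profiles was computed over the 8 libraries, as a root mean square in log2 units. The 5 nearest genes were TMEM47 (0.164), SRPX2 (0.223), MARCKSL1 (0.282), S100A9 (0.332) and SRGN (0.352). The libraries fall into 2 lines, so nearness mostly reflects a like difference between the lines, and the measure says nothing of shared control. TMEM47, a membrane protein of cell junctions, had 0 reads in the 4 parental libraries and 103, 88, 171 and 226 reads in the resistant ones. Off the drug it was at least 99.1-fold higher in resistant cells, taking 3 reads over the parental group as the limit. SRPX2, a secreted protein with sushi repeats, went from 0.531 ± 0.0629 to 39.6 ± 2.16 CPM off the drug and stood at 66.7 ± 1.30 CPM in resistant indisulam cells (SD, n = 2). MARCKSL1, an actin-binding MARCKS-like protein, went from 0.120 ± 0.0282 to 12.3 ± 0.0442 CPM (SD, n = 2). S100A9, a calcium-binding protein best known from myeloid cells, went from 0.486 ± 0.0148 to 25.1 ± 0.0255 CPM (SD, n = 2). SRGN, the core protein of the proteoglycan serglycin, went from 0.0692 ± 0.0184 to 6.75 ± 0.322 CPM (SD, n = 2). The rise of these 5 genes in resistant cells on the drug ran from 0.14 log2 units in S100A9 (SE 0.043) to 1.02 in SRGN (SE 0.072), with L1CAM at 0.51 between them. The profiles that picked the genes include these libraries, so the rise is a description without a test. TMEM47 and SRPX2 lie on chromosome X, as does L1CAM. Of 480 tested genes of that chromosome, 169 were called higher and 110 lower off the drug, with a median log2 difference of 0.03. Over all tested genes 30.3% were called higher and 29.8% lower, with a median of -0.02.

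**Figure D2:**
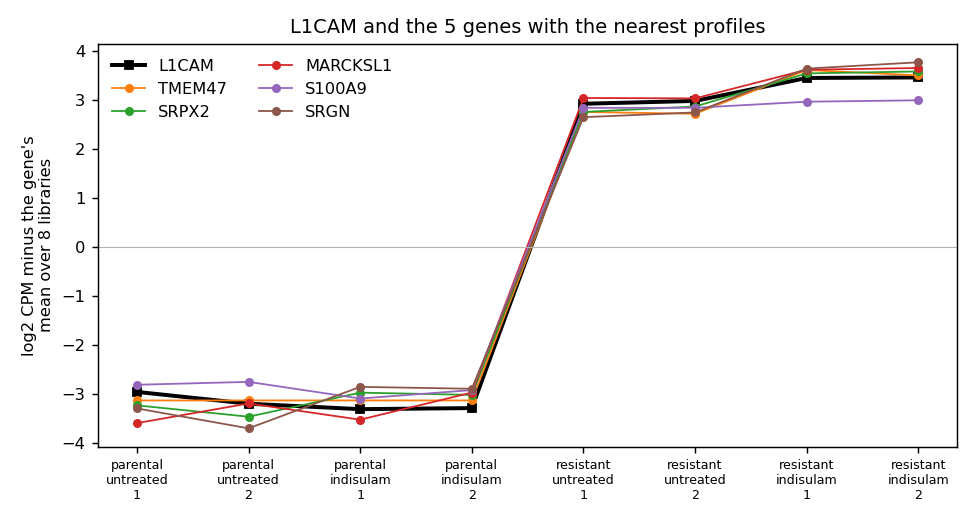
Log2 CPM (prior count 2) of L1CAM and the 5 genes with the nearest profiles, each minus its own mean over the 8 libraries, by library. Lines join the libraries of a gene for reading only. The 6 profiles lie below 0 in the 4 parental and above 0 in the 4 resistant libraries, and S100A9 changes least between the resistant groups.

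The genes around L1CAM in Xq28 were read next, to see whether the difference between the lines extended over the locus. Within 250 kb of the gene, 15 genes with a symbol were tested. Off the drug 5 were called higher and 2 lower, where 30.3% of all tested genes were called higher and 29.8% lower. The median log2 difference of the neighbours was 0.02, and 12 of the 15 differed by less than 0.5 log2 units. The nearest tested genes on either side were close to 0. IDH3G, a subunit of mitochondrial isocitrate dehydrogenase, differed by 0.02 log2 units (adjusted p 0.575), and NAA10, an N-terminal acetyltransferase, by -0.03 (adjusted p 0.633). ARHGAP4 differed by 0.01 (adjusted p 0.983) from few reads. The exceptions past 1 log2 unit lay on one side. PLXNB3, a semaphorin receptor, rose by 1.19 log2 units (adjusted p 1.13e-10), from 275 and 295 reads to 402 and 432 in the shallower resistant libraries. It has an antisense partner, PLXNB3-AS1, whose reads cannot be told apart from its own if strand was not used in counting. DUSP9, a MAP kinase phosphatase at -243.7 kb from the L1CAM start, had 0 and 2 reads in parental untreated and 39 and 28 in resistant untreated libraries, a log2 difference of 5.49 (adjusted p 7.19e-09). The pseudogene MRFAP1P1 decreased by 1.60 log2 units with an adjusted p of 0.00725, from 24 and 19 reads to 6 and 3.

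Around NRCAM 7 genes with a symbol were tested, and the 5 called off the drug were lower in resistant cells, each by less than 1 log2 unit. Around NFASC 4 with a symbol were tested, and the 2 called were higher, again by less than 1 log2 unit. These counts stand against 30.3% of all tested genes called higher and 29.8% called lower off the drug. No gene within 250 kb of CHL1 passed the filter.

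Genes around L1CAM function were examined in 7 lists (extracellular and cytoplasmic partners, proteases, regulators, neuronal genes silenced by REST, related adhesion molecules and splicing regulators), which hold 143 genes in all, 91 of them tested. Off the drug 46 of the 91 were called higher and 23 lower, where 30.3% of all tested genes were higher and 29.8% lower, and their median log2 difference was 0.13 against -0.02 over all tested genes. In the parental response 45 were called higher and 20 lower, against 31.6% and 26.6% of all tested genes, with a median of 0.12. In the resistant response 46 were called higher and 21 lower, against 24.9% and 25.8% of all, with a median of 0.09. On the drug 46 were higher and 26 lower between the lines, against 34.6% and 34.9% of all. For each list below, the counts off the drug stand against the same 30.3% and 29.8%. The lists were chosen with earlier results of these data known, and the counts describe them only.

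Among extracellular partners, 11 of 20 were tested, and off the drug 7 were called higher and 1 lower (30.3% and 29.8% of all tested genes), with a median of 0.54 log2 units. CD24, a small mucin-like ligand of L1CAM, stood at 0.667 and 0.692 CPM in untreated and 0.760 and 0.814 CPM in treated parental libraries, and at 5.66 and 5.73 CPM on the holiday and 16.4 and 16.8 CPM on the drug in the resistant line. Its groups in the resistant line did not overlap each other or the parental line. It rose by 3.06 log2 units off the drug (SE 0.102, adjusted p 6.3e-18) and by 1.54 on the drug in resistant cells (SE 0.066, adjusted p 3.54e-15). The parental response was 0.21 log2 units (SE 0.154, adjusted p 0.307). CD24 has near-identical pseudogenes among which reads could have been split, and the 4 counted here had at most 2 reads in any library.

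CNTN1, a GPI-anchored contactin that binds L1 family proteins through its immunoglobulin domains, followed the same order of groups at a low level. Its reads numbered 8 and 9 in untreated and 8 and 8 in treated parental libraries, 42 and 37 on the holiday, and 114 and 145 in resistant libraries on the drug. It rose by 2.83 log2 units off the drug (SE 0.300, adjusted p 1.6e-08) and by 1.48 on the drug in resistant cells (SE 0.170, adjusted p 1.2e-07). The integrin subunit ITGA5, part of the fibronectin receptor, rose from 7.84 ± 0.109 to 31.8 ± 1.13 CPM off the drug (SD, n = 2) and stood at 49.5 ± 0.120 CPM in resistant indisulam cells. Its partner subunit ITGB1 rose by 0.54 log2 units off the drug. ITGAV, the subunit that pairs with beta 3, rose by 0.49, whereas ITGB3 rose by 2.24 log2 units (adjusted p 0.00535) from 2 and 3 to 11 and 5 reads. ITGB1, ITGAV and ITGB3 are named here after their values were seen. NRP1, a semaphorin co-receptor, rose from 72.9 ± 0.498 to 114.8 ± 0.785 CPM off the drug (SD, n = 2) and fell by 0.44 log2 units on the drug in resistant cells (adjusted p 1.5e-11). ALCAM, an immunoglobulin-type ligand, was the member called lower, falling by 0.58 log2 units (SE 0.028) from 290.9 ± 2.90 to 195.1 ± 0.380 CPM (SD, n = 2). Of the partners that were not tested, most are contactins and neural matrix or adhesion proteins.

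**Figure D3:**
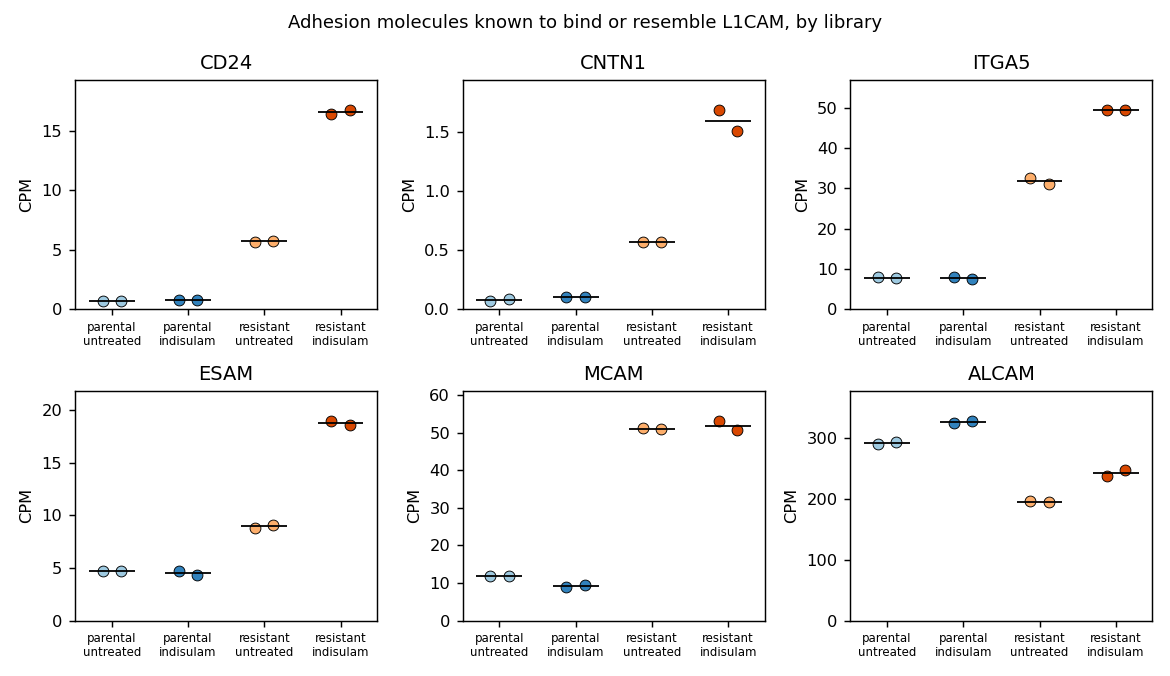
CPM of 6 adhesion molecules by library (points) with group means (bars), each on its own axis from 0. CD24, CNTN1, ITGA5 and ESAM are highest in the 2 resistant indisulam libraries, MCAM is near 50 CPM in all 4 resistant libraries, and ALCAM is lower in resistant than in parental libraries.

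Among cytoplasmic partners, 17 of 20 were tested, and off the drug 7 were called higher and 5 lower, with a median of 0.00 log2 units. The differences were under 1 log2 unit. MSN, or moesin, which links membrane proteins to actin, rose by 0.46 log2 units (SE 0.027), and the AP-2 subunits AP2M1 and AP2S1 rose by 0.38 (SE 0.028) and 0.19 (SE 0.029). SDCBP, the scaffold syntenin, fell by 0.57 (SE 0.030), and the spectrins SPTBN1 and SPTAN1 fell by 0.48 (SE 0.031) and 0.12 (SE 0.034). ANK3, an ankyrin that anchors the L1 family tail to spectrin, differed by -0.01 log2 units off the drug and was not called. The rise of L1CAM was therefore accompanied by small differences in both directions among the genes of its cytoplasmic attachment.

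Among proteases that cleave L1CAM and other surface proteins, 11 of 13 were tested, and off the drug 8 were called, each of them higher (30.3% of all tested genes), with a median of 0.25 log2 units. The sheddases ADAM10 and ADAM17 rose by 0.29 and 0.25 log2 units, ADAM10 from 144.6 and 147.7 CPM in parental to 180.2 and 177.9 CPM in resistant untreated libraries. ADAM10 and ADAM17 fall outside the rule and are named for their known role. APH1B, a gamma-secretase subunit, went from 0.623 ± 0.127 to 1.58 ± 0.0567 CPM (SD, n = 2), the largest change among the proteases tested, at 1.34 log2 units (SE 0.176, adjusted p 5e-07). ADAM8 rose by 0.61 (SE 0.103) and BACE1, the beta-secretase, by 0.33 (SE 0.056).

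Among regulators tied to L1CAM transcription, 20 of 23 were tested, and off the drug 9 were called higher and 5 lower, with a median of 0.04 log2 units. SNAI2, the repressor Slug known from epithelial-mesenchymal transition, stood at 5.55 and 5.07 CPM in untreated and 5.38 and 4.91 CPM in treated parental libraries, and at 15.1 and 15.8 CPM on the holiday and 10.9 and 10.7 CPM on the drug in the resistant line. It rose by 1.54 log2 units off the drug (SE 0.062, adjusted p 2.6e-16 with edgeR). In resistant cells on the drug it fell by 0.52 (SE 0.058, adjusted p 9.9e-08), the direction opposite to that of L1CAM. Whether SNAI2 acts on L1CAM in these cells was not tested. TCF7, a transcription factor of the Wnt pathway, rose by 1.10 (SE 0.068) and TGFBR2, a TGF-beta receptor, by 0.71 log2 units (SE 0.037), while TCF7L2, a second Wnt pathway factor, fell by 0.45 (SE 0.039). IL1B, a cytokine, had 8 and 3 reads in untreated and 12 and 11 in treated parental libraries, and 37 and 35 on the holiday and 71 and 113 on the drug in the resistant line. It was called higher by 3.31 log2 units off the drug, 1.54 in the parental response and 1.11 in the resistant response. DNMT1, the maintenance DNA methyltransferase, fell by 0.48 (SE 0.029) off the drug and was also lower on the drug in each line, by 0.27 and 0.31 log2 units.

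REST, which silences neuronal genes outside the nervous system and L1CAM among them, went from 62.1 ± 1.72 to 54.5 ± 2.97 CPM off the drug (SD, n = 2), a log2 change of -0.19 with an SE of 0.045 and an adjusted p of 0.0017 (edgeR). Of 19 other neuronal genes known to be silenced by REST, 8 were tested, and off the drug 2 were called higher and 4 lower, with a median of -0.16. VGF, CELSR3 and SYP fell by 0.92, 0.74 and 0.70 log2 units off the drug, and each rose in resistant cells on the drug, by 0.92, 0.99 and 0.82. The genes that rose were SCG2 and UNC13A, by 3.56 and 1.93 log2 units, from 6 and 2 to 36 and 27 reads and from 10 and 9 to 22 and 25 reads. They are named after their values were seen. The summed CPM of 6 neuronal markers ran from 3.01 to 3.09 in untreated and 2.36 to 2.53 in treated parental libraries, and from 3.65 to 4.10 on the holiday and 5.65 to 5.67 on the drug in the resistant line, and the part of neuronal RNA in these values was not tested. RBFOX3, SNAP25 and STMN2, defining markers of neurons, had at most 3 reads in any library. The other listed markers were SYP, given above, MAP2 and TUBB3. Off the drug MAP2 was higher in the resistant line by 1.22 log2 units (adjusted p 6.76e-08 with edgeR), and TUBB3 differed by 0.11 (adjusted p 0.592). On the drug in resistant cells TUBB3 rose by 0.93 log2 units (adjusted p 2.92e-05), and MAP2 changed by 0.21 (adjusted p 0.17).

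Among other immunoglobulin-type adhesion molecules, 17 of 40 were tested, and off the drug 12 were called higher and 3 lower (30.3% and 29.8% of all tested genes), with a median of 0.25 log2 units. MCAM, an endothelial and melanoma adhesion molecule, rose from 11.8 ± 0.0747 to 51.0 ± 0.0891 CPM (SD, n = 2), by 2.11 log2 units (SE 0.041, adjusted p 1.1e-22). On the drug in resistant cells its change was 0.02 (adjusted p 0.65). ESAM, a junctional molecule of endothelium and platelets, rose by 0.92 off the drug (SE 0.064) and by 1.07 on the drug in resistant cells (SE 0.056), reaching 19.0 and 18.6 CPM. BCAM, a laminin receptor, rose by 0.68 (SE 0.051) off the drug, and its responses to the drug were -0.36 and -0.59 log2 units in parental and resistant cells, both called. NECTIN1, an adherens junction protein, went from 51.7 and 51.5 to 21.9 and 21.3 CPM, a log2 change of -1.26 with an SE of 0.039 and an adjusted p of 1.6e-18 (edgeR). CEACAM1 rose by 3.10 log2 units from 6 and 6 to 43 and 25 reads and is named after its values were seen.

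Splicing regulators were included because inclusion of short neuronal exons in L1CAM is under splicing control and because the drug removes a splicing factor. Exon use itself was not analysed here. Of 15 listed genes 9 were tested, and off the drug 2 were called higher and 6 lower, with a median of -0.08 log2 units. MBNL2 rose by 0.54 (SE 0.043) and PTBP2 by 0.11 (SE 0.041), while ESRP2, an epithelial splicing regulator, fell by 0.41 (SE 0.030) and QKI by 0.35 (SE 0.032). RBM39 RNA differed by -0.13 log2 units between the lines off the drug (SE 0.029, adjusted p 0.00033 with edgeR). It rose in both lines on the drug, by 1.11 and 0.94. These values are RNA, whereas the drug degrades the RBM39 protein, which these libraries do not measure. NOVA1, NOVA2, SRRM4 and other neuron-restricted regulators did not pass the filter.

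**Figure D4:**
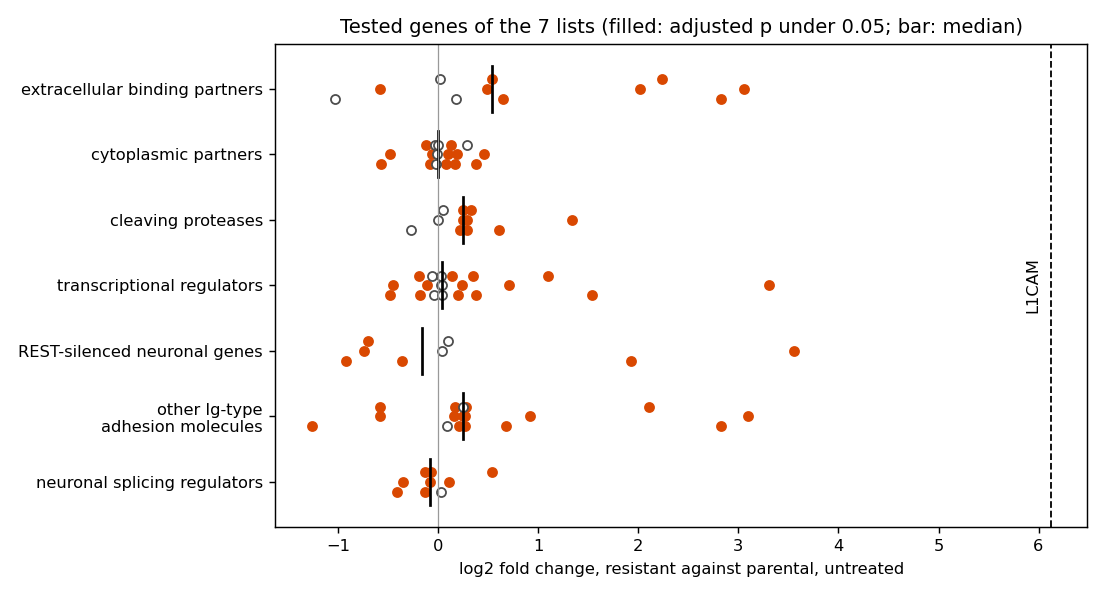
Log2 fold change between resistant and parental untreated cells of the tested genes of the 7 lists. Filled points were called (adjusted p under 0.05), vertical bars mark list medians, the dashed line marks L1CAM at 6.12, and a gene in several lists is drawn in each. The medians lie between -0.16 and 0.54, and no listed gene reaches the L1CAM value.

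The cells carried the markers of their label in both lines. Of 10 epithelial or ductal markers 9 were tested, 8 of them called higher and 1 lower in resistant untreated cells, and their summed level ran from 6400 to 6590 CPM in parental and from 11000 to 12400 CPM in resistant libraries. The part of this increase in the results above was not tested. CFTR, a defining ductal channel, had at most 3 reads in any library. Since some notes of the labels name A549, a lung line, 5 lung markers were read too. NKX2-1, SFTPA1, SFTPB and SFTPC had at most 3 reads in every library, whereas ABCA3 stood between 26.3 and 39.0 CPM. Whether these markers tell A549 from Panc10.05 was not tested. Of the markers of glia and Schwann cells, a known source of L1 family RNA, MBP stood between 73.2 and 89.9 CPM, while SOX10 and S100B had at most 3 reads in any library. Summed fibroblast markers ran from 1.35 to 4.03 CPM and were highest in resistant indisulam cells. COL1A1 made up nearly all of that sum, at 3.96 and 3.89 CPM in these libraries. It rose by 1.31 log2 units on the drug in resistant cells (SE 0.127, adjusted p 8.32e-09 with edgeR). DCN and LUM had at most 3 reads in any library. Endothelial and leukocyte markers summed to at most 0.341 and 0.371 CPM.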

How the data were processed

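RNA of 8 libraries was sequenced as stranded, paired-end reads from polyadenylated RNA. The authors trimmed reads with SeqPurge, aligned them to GRCh38 with HISAT2 (2.2.1 per the labels) and deposited raw read counts per gene. The processing notes also name Picard and HTSeq. The strand setting, counting rules and annotation release are not given in the sources used here. Counts exclude reads marked as duplicates, and 9 lines for reads without a gene were left out. The labels' growth and treatment notes name A549, but the titles, which name Panc10.05, were followed. Genes were named with GENCODE 44, which matched 60419 of 60675 identifiers and may differ from the release used for counting.

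Libraries held 65266253 to 108002436 assigned reads. Intervals and limits from counts cover counting error only, because no molecular identifiers marked the reads. Exact permutation of 2 against 2 libraries (two-sided) reaches 0.333 at best, so tests came from edgeR 4.0.16 in R 4.3.3: filterByExpr, TMM, a robust quasi-likelihood fit of 4 group means to all libraries with 4 residual degrees of freedom, and Benjamini-Hochberg adjustment over 16661 genes with a threshold of 0.05. A difference of responses is the resistant minus the parental response. The code was tested on simulated data. Deviations of same-numbered libraries correlated at -0.058 to 0.027, so the numbers were not taken to pair samples.

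The members, lists and markers were chosen with earlier results of these data known. Named were the members, and of each list up to 3 largest called rises and 3 largest called falls off the drug with a mean of at least 1 CPM. Also named were genes called past 1 log2 unit in a drug contrast in the lists of partners, proteases and regulators, the 5 nearest profiles to L1CAM, and neighbours within 250 kb called past 1 log2 unit. Motifs were searched in RefSeq promoter windows of GRCh38.p14 and in GRCh38 itself. Alternatives changed the scaling (size factors of DESeq2 1.42.0, or library totals), the tool (the Wald test of DESeq2), the filter (none, or a mean of 1 CPM), the libraries (the compared groups alone, or each library left out) and the threshold (adjusted p under 0.01, or glmTreat against 0.5 log2 units). Others added the replicate number as a block, dropped mitochondrial genes with the 10 most abundant ones, or used a prior count of 0.5 for the profiles and the longest transcript for length. Protein sequences were not used here. Python 3.11.15 and matplotlib 3.10.9 gave the plots.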

Additional observations from a re-analysis of the deposited data

Results flagged for a closer look

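The resistant minus the parental log2 response of L1CAM was 0.75. Both parental indisulam libraries lay below both untreated ones and both resistant indisulam libraries above both untreated ones. The parental log2 difference of -0.24 was within counting error, and the difference of responses was not tested because the comparison that chose the gene forms one side of it. Leaving aside the markers COL1A1 and TUBB3, 27 of the other genes named had a difference of responses with an adjusted p under 0.05. The test was the interaction term of edgeR, among 16661 genes of which 22.6% were called higher and 27.5% lower. Many of the 27 were named for the size of a change in these data or after their values were seen. Their count is therefore a description and is not read against these shares. The extracellular partners in this set were CD24 with a difference of 1.33 log2 units (SE 0.167, adjusted p 7.3e-07), ITGA5 with 0.66, NRP1 with -0.42, ITGB1 with -0.21, ITGAV with -0.12, ALCAM with 0.15, and ITGB3 with 4.93 from 0 reads in the parental indisulam libraries. The proteases were ADAM10 with -0.25 and ADAM17 with -0.19. The cytoplasmic partners were MSN with 0.19, AP2S1 with -0.13, SDCBP with 0.19 and SPTBN1 with 0.19. The regulators were SNAI2 with -0.47 and TGFBR2 with -0.25. The neuronal genes were VGF with 0.68, CELSR3 with 0.65 and SYP with 1.58 (SE 0.255, adjusted p 1.91e-05). SYP fell in parental cells by 0.76 log2 units and rose in resistant cells by 0.82. Adhesion molecules other than partners were MCAM with 0.38, ESAM with 1.13 (SE 0.090, adjusted p 1.06e-09) and BCAM with -0.24. The splicing regulators were MBNL2 with -0.45, ESRP2 with 0.34 and RBM39 with -0.18. The remaining genes were PLXNB3, a neighbour of L1CAM, with 0.86, CCBE1 with 2.25 and the marker MBP with -0.21. COL1A1 and TUBB3, not counted among the 27, had differences of 1.41 and 1.44 log2 units (edgeR, adjusted p 1.9e-06 and 3.07e-05). CCBE1 was named by its rank in the comparison that chose L1CAM, which is part of this difference. Its value is therefore a description only. With 2 libraries per group, no library was tested for standing apart from its group.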

How the results depend on the processing

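The log2 difference of L1CAM between the lines off the drug lay between 6.0 and 6.26 over all alternatives and was called in each. Its parental response lay between -0.37 and -0.11. Its response in resistant cells lay between 0.48 and 0.55. The value of 0.51 under glmTreat lay close to the minimum effect of 0.5 log2 units set there. No glmTreat call is read for this response, because the resistant indisulam libraries entered the choice of L1CAM. These responses are descriptions without a test of their own. The difference of responses of L1CAM, likewise, lay between 0.61 and 0.87, and the difference between the lines on the drug between 6.87 and 6.96. With the replicate number as a block the L1CAM values were -0.24, 0.50 and 6.12 in the parental response, the resistant response and off the drug, and the block left the call off the drug in place. It called 66, 67, 68, 72 and 58 listed genes, against 65, 67, 69, 72 and 57 without it, in the parental response, the resistant response, off the drug, on the drug and in the difference of responses. Under glmTreat those counts fell to 2, 10, 20, 21 and 4, which asks for a change beyond 0.5 log2 units. Off the drug glmTreat called 1 cytoplasmic partner in place of 12, 1 protease in place of 8, 4 regulators in place of 14, 3 neuronal genes in place of 6, 7 other adhesion molecules in place of 15 and 0 splicing regulators in place of 8. The splicing regulators called off the drug numbered 5 with the DESeq2 Wald test, with an adjusted p under 0.01, without parental untreated replicate 1 and without parental untreated replicate 2. The other alternatives kept the counts over the 7 lists within 1.5 times. How many of all tested genes were called under each alternative is not given here. These counts therefore do not tell whether the listed genes lost calls more than genes in general. Of the 5 genes nearest to L1CAM, 4 stayed with a prior count of 0.5.

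Depth limits CHL1, NFASC and NRCAM, and parental L1CAM at 20 to 38 reads per library. The libraries are technical replicates of 1 derived line, so the spread between independent selections is not known here.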
